A study of Mus musculus with 13 samples.

Results

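The genes described here are 54 mouse genes of DNA replication, measured in skin tumours that lacked or kept the histone methyltransferase G9a. They encode the machinery that licenses replication origins, starts and extends the new strands, supplies nucleotides, turns on the S phase programme, packs new DNA into chromatin and protects the fork. A gene counted as measured where at least 1 probe set of the array carried its symbol and no other, which held for 53 of the 54, out of 17097 genes in all. The origin recognition subunit Orc3 was the exception, because its probe sets also carry the symbol of a neighbouring gene. Each gene was read from the probe set with the highest mean over all arrays.

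The series holds 13 arrays of RNA from tumours called squamous cell carcinoma in the labels. Of these, 7 came from G9a cKO mice (cKO, conditional knockout) and 6 from G9a WT mice (wild type). All mice were 8 weeks old at the start and received DMBA, a carcinogen, and TPA, which promotes tumours, on the shaved back skin once weekly for 6 weeks, after which TPA alone was continued for up to 20 weeks, so both genotypes carry the same treatment. The promoter that drives the Cre recombinase, the strain, the sex and whether each array is a separate animal are not given in the labels, so p-values measure only the spread between these arrays.

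DNA replication is prepared in G1, when the origin recognition complex, Cdc6 and Cdt1 load the ring-shaped MCM helicase onto DNA. In S phase the kinase Cdc7, with its activator Dbf4, and the GINS and Cdc45 factors switch that helicase on, and the polymerases, the clamp Pcna and its loader then copy both strands. Most of these genes are transcribed at the G1 to S transition by E2F factors, and in skin they mark the dividing basal keratinocytes from which squamous tumours grow.

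The values are log2 intensities that the authors normalized with RMA, a method that corrects background, normalizes the arrays and summarises the probes of each probe set. Differences are cKO minus WT on that scale, tested with limma over all 17097 genes and called at a Benjamini-Hochberg adjusted p below 0.05. Arrays of a group that are neighbours in deposit order deviated from its mean in opposite ways. Correlations across genes were -0.96 to -0.88 in 6 pairs, with cKO replicate 1 left over. That array was picked on these same data because leaving it over made the correlations of the cKO pairs lowest. The WT pairs follow from deposit order alone. A fit with a term for the pairs was therefore set beside the fit without it. The words rose and fell are kept for genes that both of them called. The fit with the term takes its error only from differences within pairs, which the mirroring makes large. Its SE for Mcm2 was 0.194, against 0.155 without the term. A call lost with it is therefore no evidence that a gene is unchanged. Bright genes as a class also read lower on the cKO arrays, the median difference being 0.07 in the middle of 10 equal bins of mean level and -0.11 in the highest bin, so members are read against genes of equal level. The second probe set of Ehmt2, the gene for G9a, averaged 6.01 ± 0.10 in cKO tumours and 8.33 ± 0.19 in WT tumours (SD, n = 7 and 6), which is 5.02-fold lower in cKO (exact permutation p = 0.000583, two-sided). Its first probe set averaged 7.42 ± 0.04 in cKO tumours and 7.29 ± 0.19 in WT tumours (exact permutation p = 0.131). The labels do not place either probe set relative to the deleted part.

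The replication genes did not shift as a block in the cKO tumours. In both fits 7 of the 53 fell, among them the ribonucleotide reductase subunit Rrm2, the polymerase subunit Pola1, the licensing factor Cdt1 and the origin subunit Orc4, and 4 rose, namely Cdc7, E2f3, the clamp loader subunit Rfc3 and the checkpoint adaptor Clspn. The other genes called lower were the histone mRNA binder Slbp and, both near the level of nonspecific controls, the nuclease Fen1 and cyclin Ccne2. Each of the 4 that rose has a further, dimmer probe set that did not rise. For Cdc7, E2f3, Rfc3 and Clspn it gave -0.03, -0.21, -0.32 and -0.05, none called in both fits. The share that fell was 13.2%, against 10.3% of all genes, and the share that rose was 7.55%, against 14.4% of all genes. Genes of equal level fell in 12.6% and rose in 12.2% of cases, so the share of members that fell was near its background. In the fit without the pair term 18 members were called, where 45.8% of all genes were. Of these, 13 were lower, 24.5% against 20.1% of all genes and 23.1% of genes of equal level. The same fit had 5 members higher, 9.43% against 25.7% of all genes and 21.2% of genes of equal level.

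The sizes were small throughout. The members' differences ranged from -0.62 to 0.57 with a median of -0.08, beside a median of 0.02 over all genes, and 34 were below and 19 above 0. The 23 nonspecific control probe sets themselves differed between the groups by -0.31 to 0.08. In size, 14 of the 53 members exceeded the largest of these control differences, as did 4059 of all 17097 genes. Relative to genes in the same bin of level the median was also -0.08, and 32 of the 53 lay below their bin's median. With quantile normalization on top, the members' median was -0.01, and with cyclic loess it was -0.05. The groups did not overlap for 7 members, or 13.2%, against 23% of all genes and 20.6% of genes of equal level. Those were Cdt1, Rrm2, Fen1, Ccne2, Cdc7, E2f3 and Clspn.

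**Figure D1:**
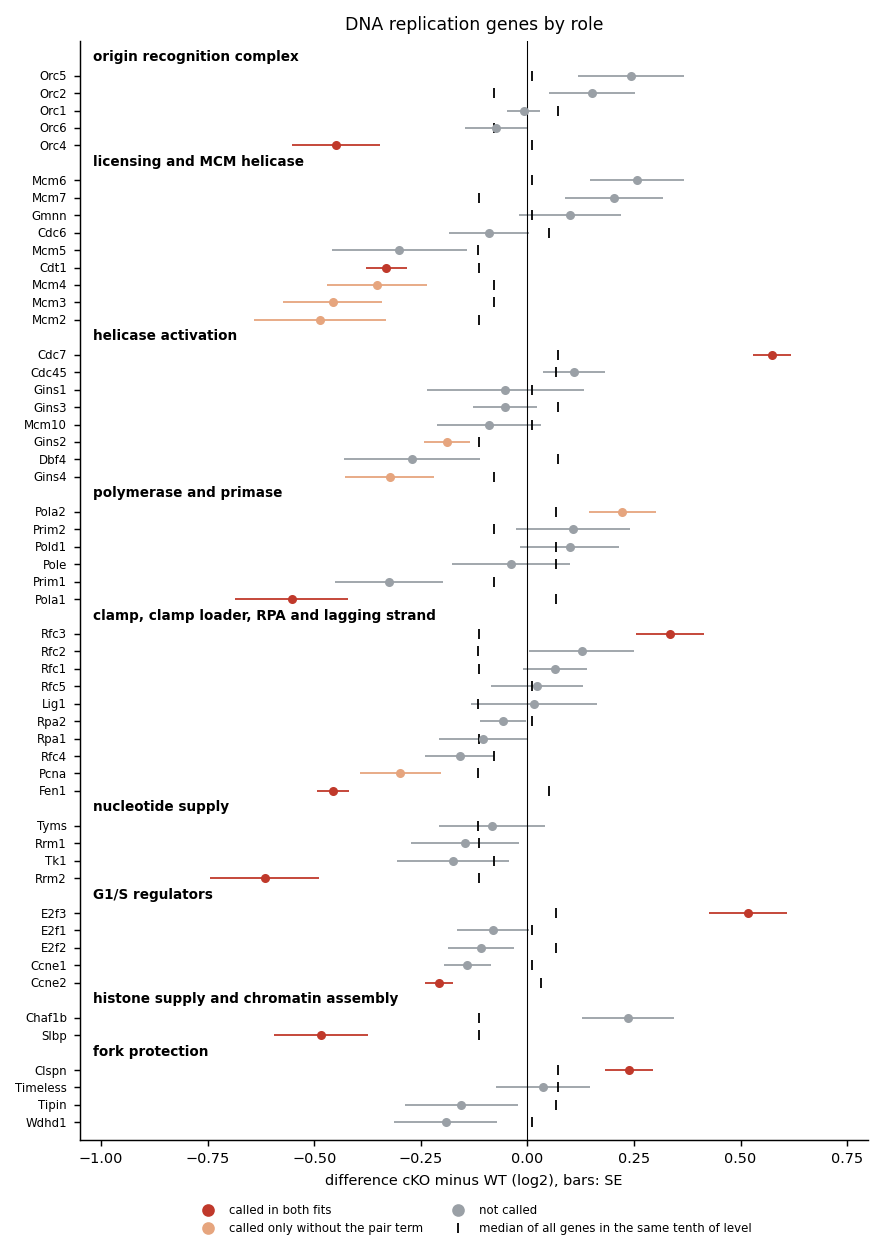
Difference cKO minus WT in log2 units for each of the 53 measured members, grouped by role, with SE bars, and marked by whether both fits, only the fit without the pair term or neither called it. Members stand on both sides of 0 in every role except nucleotide supply, between -0.62 for Rrm2 and 0.57 for Cdc7.

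Averaged over the members, the arrays of the genotypes overlapped. The member mean ran between 6.93 and 7.18 over the cKO arrays, with a median of 7.05, and between 6.90 and 7.32 over the WT arrays, with a median of 7.18. WT replicates 2 and 4 held the highest and the lowest value of all 13 arrays. These are neighbouring arrays, and without both of them 15 members were lower and 4 higher in the fit without the pair term, with a median of -0.11.

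The promoters of the members that moved are shown because E2F sites are the textbook control element of these genes and because E2f3, which rose, is itself an E2F. The RefSeq promoter windows on GRCm38.p6 run from 250 bases before to 50 after the annotated start, and 43 of the 53 measured members have one. The E2F core was searched as TTTCCCGC and as TTTGGCGC, each on both strands. At least 1 of them stood in 12 of the 43 windows, or 27.9%, against 1.80% of 27025 genes. TTTCCCGC stood in 7 member windows and in 1.24% of all, and TTTGGCGC in 6 and in 0.585%. The shorter box CCAAT, which many G1 to S and mitotic promoters carry, was found in 25 of the 43, or 58.1%, against 41.1%. Of the members called in both fits, Rfc3, Cdt1, E2f3 and Pola1 hold an E2F core, given in capitals in these windows, which are written 5′ to 3′ along the gene.
Rfc3, chr5:151651159-151651458, minus strand: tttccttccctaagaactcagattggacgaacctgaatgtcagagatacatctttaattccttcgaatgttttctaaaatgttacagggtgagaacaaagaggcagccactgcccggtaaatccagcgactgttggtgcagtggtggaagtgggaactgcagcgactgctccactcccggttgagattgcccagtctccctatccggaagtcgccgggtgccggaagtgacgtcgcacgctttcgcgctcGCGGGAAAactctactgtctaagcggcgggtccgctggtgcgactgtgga
Cdt1, chr8:122567765-122568064, plus strand: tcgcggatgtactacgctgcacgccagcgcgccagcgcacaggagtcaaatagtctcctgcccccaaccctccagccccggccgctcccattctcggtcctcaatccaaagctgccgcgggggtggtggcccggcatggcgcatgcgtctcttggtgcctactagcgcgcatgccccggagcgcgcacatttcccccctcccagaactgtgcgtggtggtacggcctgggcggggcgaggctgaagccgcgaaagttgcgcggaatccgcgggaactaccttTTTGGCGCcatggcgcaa
E2f3, chr13:29986014-29986313, minus strand: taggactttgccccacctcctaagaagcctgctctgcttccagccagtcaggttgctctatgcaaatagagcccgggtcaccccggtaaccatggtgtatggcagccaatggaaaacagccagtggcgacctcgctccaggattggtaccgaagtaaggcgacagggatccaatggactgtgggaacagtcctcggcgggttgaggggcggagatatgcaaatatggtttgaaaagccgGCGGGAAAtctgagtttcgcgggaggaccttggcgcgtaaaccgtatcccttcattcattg
Pola1, chrX:93632106-93632405, minus strand: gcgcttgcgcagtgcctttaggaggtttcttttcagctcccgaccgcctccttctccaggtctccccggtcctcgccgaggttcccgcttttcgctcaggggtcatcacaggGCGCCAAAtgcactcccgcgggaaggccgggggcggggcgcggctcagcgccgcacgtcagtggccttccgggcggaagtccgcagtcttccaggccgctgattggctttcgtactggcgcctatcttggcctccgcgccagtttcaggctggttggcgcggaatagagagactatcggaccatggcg

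Among these promoters, those of Pola1 and Cdt1 belong to genes that fell and those of E2f3 and Rfc3 to genes that rose. The 12 members with an E2F core had a median difference of -0.07 and ranged from -0.55 to 0.52, with 2 fallen and 2 risen. The 31 members with a window but no such core had a median of -0.08, with 4 fallen and 2 risen. A match is a description of the letters, and no match says only that these letters are not in this window.

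At the origin, Orc4 was the 1 of 5 measured recognition complex subunits that moved. It ran from 6.49 over a median of 6.66 to 6.75 on the cKO arrays and from 6.72 over 7.07 to 7.45 on the WT arrays. The groups touched at their edges, where WT replicate 7 lay at the level of the highest cKO arrays and the other WT arrays above them all. The difference was -0.45 (limma adjusted p = 0.0034, and 0.0393 with the pair term). A further probe set of Orc4 was called in both fits at -0.48, a second gave -0.25 (adjusted p = 0.149 with the pair term) and the dimmest 0.06. The ATP-binding subunit Orc5 averaged 6.95 ± 0.22 in cKO tumours and 6.70 ± 0.26 in WT tumours, a difference of 0.24 that was not called. The other subunits were not called either, with differences between -0.07 for Orc6 and 0.15 for Orc2. Dimmer probe sets of Orc2 had the opposite sign, at -0.27 and -0.23, and were not called with the pair term.

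Among the loading factors and the helicase, Cdt1, which delivers the MCM ring to origins, fell in both fits. Its cKO arrays ran from 8.69 over a median of 8.81 to 8.92, and its WT arrays from 8.94 over 9.14 to 9.17. Every cKO array was below every WT array, with WT replicate 4 the nearest to them. The difference was -0.33 (limma adjusted p = 0.0001, and 0.0079 with the pair term), and -0.25 and -0.04 at 2 further probe sets, neither called in both fits. Geminin (Gmnn), which binds and inhibits Cdt1, had a difference of 0.10 that was not called. Cdc6, the ATPase that loads the ring with Cdt1, lay near the nonspecific control probe sets on many arrays and differed by -0.09.

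The brightest probe sets of the MCM ring subunits differed in sign, and none of the subunits was called in both fits by them. Mcm2, Mcm3 and Mcm4 differed by -0.49, -0.46 and -0.35, and each was called without the pair term but not with it, the adjusted p with it being 0.105, 0.0529 and 0.114. Mcm5, the brightest of them, averaged 9.59 ± 0.20 in cKO tumours and 9.89 ± 0.39 in WT tumours (limma adjusted p = 0.139). Mcm6 and Mcm7 had positive differences of 0.26 and 0.20 that were not called, although both were called after quantile normalization without the pair term (adjusted p = 0.0299 and 0.0291, and 0.137 and 0.135 with it). A second bright probe set of Mcm7 had the opposite sign, at -0.26, and was not called. A second, dimmer probe set of Mcm3 gave -0.47 and was called in both fits, while a dim one of Mcm5 gave 0.38, also called in both. On that dim probe set all 6 WT arrays lay below the upper quartile of nonspecific control probe sets, at 4.29, so its WT level is only a bound.

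In helicase activation, the kinase Cdc7 rose, with the smallest adjusted p of the 53 members. It ran from 5.84 over a median of 5.92 to 6.01 on the cKO arrays and from 5.22 over 5.35 to 5.42 on the WT arrays. The groups were far apart compared with their own spread. The difference was 0.57, or 1.49-fold (adjusted p = 0.0013 in limma with the pair term), whereas a second probe set of Cdc7 gave -0.03 and was not called. Dbf4, which activates Cdc7, averaged 5.16 ± 0.28 in cKO tumours and 5.43 ± 0.33 in WT tumours (limma adjusted p = 0.183). Of the GINS subunits, which tether the polymerase to the helicase, Gins2 and Gins4 differed by -0.19 and -0.32 and lost their call with the pair term (adjusted p = 0.0785 and 0.111). A dimmer probe set of Gins2 gave -0.45 and was called in both fits. Gins1, Gins3, the helicase cofactor Cdc45 and the activation factor Mcm10 were not called, with differences between -0.09 and 0.11.

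**Figure D2:**
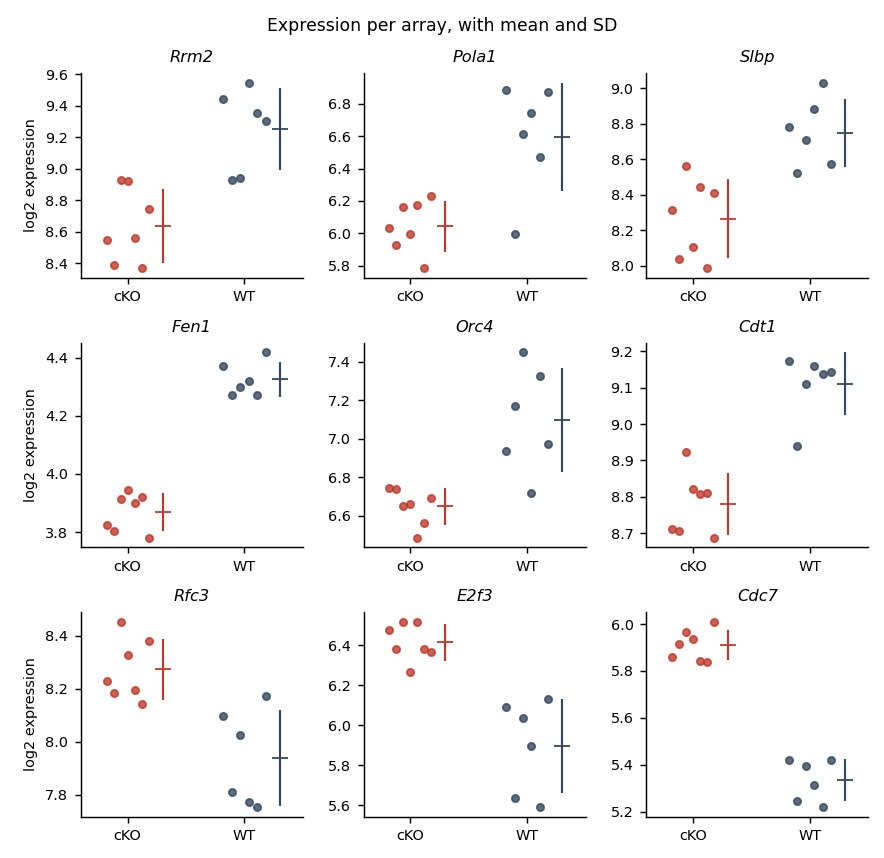
Log2 intensity on each of the 7 cKO arrays, left, and 6 WT arrays, right, for the 9 members called in both fits with an absolute difference of at least 0.3, with group means. Rrm2, Fen1, Cdt1, E2f3 and Cdc7 have no overlap between the groups, while Slbp, Orc4 and Rfc3 overlap at their edges and 1 WT array of Pola1 lies within the cKO range.

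Among the polymerases, Pola1, the catalytic subunit of the polymerase that primes both strands, fell. It ran from 5.78 over a median of 6.03 to 6.23 on the cKO arrays and from 5.99 over 6.68 to 6.88 on the WT arrays. Most WT arrays were above all cKO arrays, but WT replicate 4 lay within their range. The difference was -0.55 (limma adjusted p = 0.0045, and 0.0421 with the pair term), and no further probe set was assigned to it alone. Its partner subunit Pola2 differed by 0.22, in the other direction, without a call in the fit with the pair term (adjusted p = 0.143). A dimmer probe set of Pola2 gave 0.30 and was called in both fits. The primase subunit Prim1, which makes the RNA primer, averaged 7.59 ± 0.22 in cKO tumours and 7.91 ± 0.26 in WT tumours and missed the threshold (limma adjusted p = 0.0503). The other primase subunit Prim2 differed by 0.11 and was not called, while its further probe sets gave -0.59, uncalled with the pair term, and 0.28, called in both fits. The leading-strand polymerase Pole and the lagging-strand polymerase Pold1 differed by -0.04 and 0.10, neither called.

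Among the clamp, its loader and the proteins that join the lagging strand, Rfc3 rose. It ran from 8.14 over a median of 8.23 to 8.45 on the cKO arrays and from 7.75 over 7.92 to 8.17 on the WT arrays. The groups overlapped by a narrow margin. The difference was 0.34 (limma adjusted p = 0.0042, and 0.0479 with the pair term), but a dimmer probe set gave -0.32 and was not called with the pair term. Rfc1, Rfc2, Rfc4 and Rfc5 differed by 0.07, 0.13, -0.16 and 0.02 with no call. Dimmer probe sets of Rfc1, the large loader subunit, and of Rfc4 gave 0.57 and -0.30, and both were called in both fits. Pcna itself, the sliding clamp, averaged 10.11 ± 0.16 in cKO tumours and 10.41 ± 0.20 in WT tumours. That difference of -0.30 was called without the pair term only (adjusted p = 0.0215, and 0.105 with it).

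The flap nuclease Fen1, which trims Okazaki fragments, was called lower in both fits (limma adjusted p = 0.0015 with the pair term), but at a level where the array hardly measures. It ran from 3.78 over 3.90 to 3.94 on the cKO arrays and from 4.27 over 4.31 to 4.42 on the WT arrays. The groups did not overlap. Fen1 lay below the control upper quartile of 4.29 on 7 of 7 cKO arrays and 2 of 6 WT arrays, so its level in cKO tumours is only a bound, at least 1.02-fold lower than in WT. The DNA ligase Lig1 and the single-strand binding subunits Rpa1 and Rpa2, all well above that level, differed by 0.02, -0.10 and -0.06 with no call. A dimmer probe set of Rpa2, also above that level, gave 0.48 and was called without the pair term only (limma adjusted p = 0.0208, and 0.108 with it).

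Of the enzymes that make deoxynucleotides, Rrm2, the regulated subunit of ribonucleotide reductase, had the most negative difference of the 53 members. It ran from 8.37 over a median of 8.56 to 8.92 on the cKO arrays and from 8.93 over 9.33 to 9.55 on the WT arrays. The highest cKO array and the lowest WT array all but met, without overlap. The difference was -0.62, or 1.53-fold lower in cKO (limma adjusted p = 0.0018, and 0.0270 with the pair term). A second bright probe set gave -0.50 (adjusted p = 0.0704 with the pair term). Its partner subunit Rrm1 differed by -0.15 and the thymidine kinase Tk1 by -0.17, neither called. Thymidylate synthase Tyms, which makes dTMP, was near even at -0.08. Its further probe sets were dim, those called in both fits lying below the control level on 4 of 6 WT arrays or on 5 of 7 cKO arrays, and their sign is not read here.

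Among the G1 to S regulators, E2f3, a transcription factor that switches on S phase genes, rose. It ran from 6.27 over a median of 6.38 to 6.52 on the cKO arrays and from 5.59 over 5.97 to 6.13 on the WT arrays. All cKO arrays were above all WT arrays. The difference was 0.52 (limma adjusted p = 0.0006, and 0.0166 with the pair term), while a dimmer probe set gave -0.21 and was not called with the pair term. The related factors E2f1 and E2f2 differed by -0.08 and -0.11 with no call, although their second probe sets were called in both fits at -0.34 and 0.68. Cyclin E1 (Ccne1), which activates Cdk2 at the G1 to S transition, differed by -0.14 (limma adjusted p = 0.0564). Cyclin E2 (Ccne2) was called lower in both fits, but it lay below the control level on all 13 arrays and has no fold.

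At the chromatin and fork stage, Slbp, which binds the stem-loop of replication-dependent histone mRNAs, fell. It ran from 7.99 over a median of 8.31 to 8.56 on the cKO arrays and from 8.52 over 8.75 to 9.03 on the WT arrays. The groups overlapped by a small margin. The difference was -0.48 (limma adjusted p = 0.0032, and 0.0375 with the pair term), and 0.20 and 0.03 at its further probe sets, neither called. Chaf1b, a subunit of the chromatin assembly factor, averaged 8.42 ± 0.14 in cKO tumours and 8.19 ± 0.26 in WT tumours and was not called (limma adjusted p = 0.0931). Clspn, the adaptor that passes a stalled fork's signal to the checkpoint kinase Chk1, rose by 0.24 without overlap (limma adjusted p = 0.0037, and 0.0470 with the pair term). A dimmer probe set of Clspn, above the control level on all arrays, gave -0.05 and was not called. Timeless and Tipin, which hold the fork together, and Wdhd1, which links helicase and polymerase, differed by 0.04, -0.15 and -0.19 with no call.

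Probe sets for the same gene often differed in value. The 53 members have 96 probe sets, and 32 of the genes have more than 1. Of the 43 further probe sets, 13 were called in both fits, 7 lower and 6 higher, and they belong to 12 genes. In 4 of those genes, Mcm5, Tyms, E2f2 and Chaf1b, a called further probe set had the opposite sign to the first. Only that of E2f2 lay above the control level of 4.29 on all arrays, since that of Chaf1b was below it on all 13, that of Mcm5 on 6 of 6 WT arrays and that of Tyms on 4 of 6 WT arrays. Averaged over their probe sets, Clspn, E2f3, Rfc3 and Slbp were not called. In a fit over all probe sets, where the first probe set of Mcm3 passed with the pair term (adjusted p = 0.0491), 15.6% of the 96 fell and 10.4% rose, against 12.9% and 13.9% of all probe sets with 1 symbol.

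**Figure D3:**
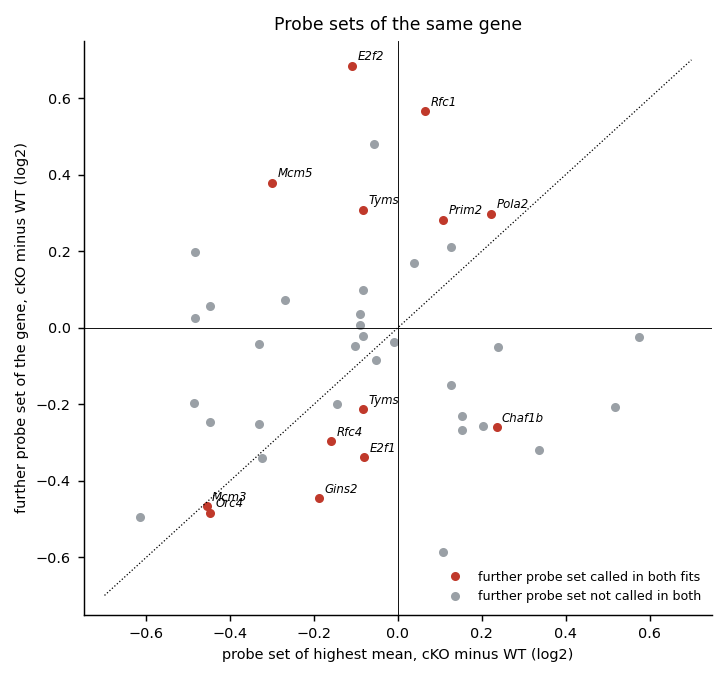
Difference cKO minus WT in log2 units for members with more than 1 probe set. Each further probe set, on the vertical axis, is set against the brightest of its gene, on the horizontal axis. Colour marks further probe sets called in both fits, and only these are named. The further probe sets of Cdc7, Rfc3 and E2f2 lie away from the dotted line of equality. Those of Orc4 and Rrm2 have the sign of the brightest, apart from the dimmest of Orc4.

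The members are mostly bright genes, with 36 of the 53 in the 4 highest of the 10 bins of level. Against the median of its own bin, Rfc3 stood at 0.45 and Cdc7 at 0.50, and Rrm2 at -0.50. Pola1 stood at -0.62, so it was the member farthest below genes of equal level. With quantile normalization 8 members were lower and 9 higher, against 16.8% and 27.8% of all genes, and Mcm2, Mcm4, Gins2, Gins4 and Pcna were no longer called. With the pair term and quantile normalization together Cdc7, E2f3, Rfc3, Fen1 and Ccne2 kept their calls, while Rrm2, Pola1, Cdt1, Orc4, Slbp and Clspn missed the threshold.

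**Figure D4:**
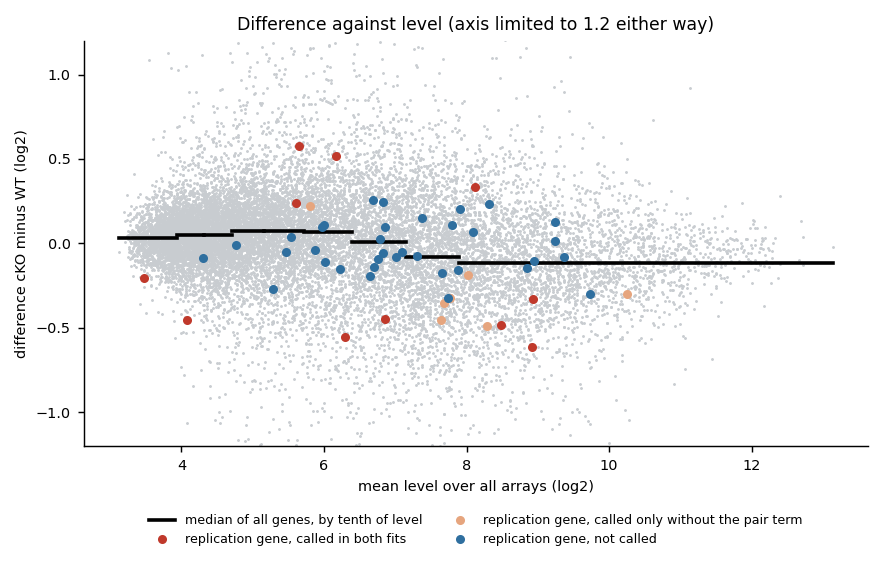
Difference cKO minus WT in log2 units against mean log2 intensity for the 53 members, with the median difference of all genes in each of the 10 bins of level. The median over all genes drops to -0.11 in the highest bin, and Pola1, Rrm2, Cdc7 and E2f3 lie away from it.

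Other genes of the cell cycle, in lists drawn up with earlier results of these data known, gave a mixed picture as well. Of 22 further fork genes 5 (22.7%) were higher and 7 (31.8%) lower without the pair term, against 25.7% and 20.1% of all genes. In both fits 1 (4.55%) rose and 3 (13.6%) fell, against 14.4% and 10.3% of all genes. The median of this list was -0.02. Pold3, a subunit of the lagging-strand polymerase, rose by 0.39, while the RNase H2 subunit Rnaseh2b, the polymerase epsilon subunit Pole3 and the checkpoint activator Topbp1 fell, at -0.59, -0.34 and -0.30. Of 20 further E2F and S phase genes 2 (10%) were higher and 9 (45%) lower without the pair term, with a median of -0.20. Of all genes, 25.7% were higher and 20.1% lower in that fit. With the pair term 4 of the lower ones (20% of the list) were also called, against 10.3% of all genes. The pocket proteins Rbl1 and Rb1, which restrain E2F factors, fell at -0.64 and -0.33, the dUTPase Dut at -0.64, and Skp2, part of the ligase that degrades the inhibitor p27, at -0.23. Of 21 genes of G2 and mitosis 3 (14.3%) were higher and 4 (19%) lower without the pair term, with a median of -0.11. The share lower was near the 20.1% of all genes. Called in both fits was 1 of the higher ones (4.76% of the list), the spindle checkpoint kinase Ttk, at 0.63. The mitotic kinase Aurka at 0.40, the topoisomerase Top2a at -0.62 and the spindle checkpoint kinase Bub1 at -0.34 had no call in the fit with the pair term (adjusted p = 0.0593, 0.0875 and 0.0798).

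Markers of fibroblasts and endothelial cells were higher in cKO tumours. Keratinocyte markers were high on every array, their mean running from 10.89 to 11.30 in cKO tumours and from 11.05 to 11.27 in WT tumours. Without the pair term 1 of 11 (9.09%) was higher and 3 (27.3%) lower in cKO, against 25.7% and 20.1% of all genes. Of 12 fibroblast markers 7 (58.3%) were higher, with list means of 6.49 to 7.09 in cKO tumours and 5.61 to 6.14 in WT tumours. Of 9 endothelial markers 7 (77.8%) were higher, at 5.59 to 6.06 in cKO tumours and 4.30 to 5.48 in WT tumours. Of 12 macrophage and leukocyte markers 3 (25%) were higher and 2 (16.7%) lower, near the 25.7% and 20.1% of all genes. Their list means were 4.78 to 5.46 in cKO tumours and 4.57 to 4.66 in WT tumours. Cd53 had the largest difference of this list, 2.95, beside a list median of 0.25. The 2 lower ones were Cd14 and Aif1, at -0.42 and -0.26. Of 6 T cell markers 2 (33.3%) were higher and 1 (16.7%) lower. The part of all these cell types in the members' differences was not tested. In these bulk samples fewer cells of a type and less RNA per cell cannot be told apart.

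**Figure D5:**
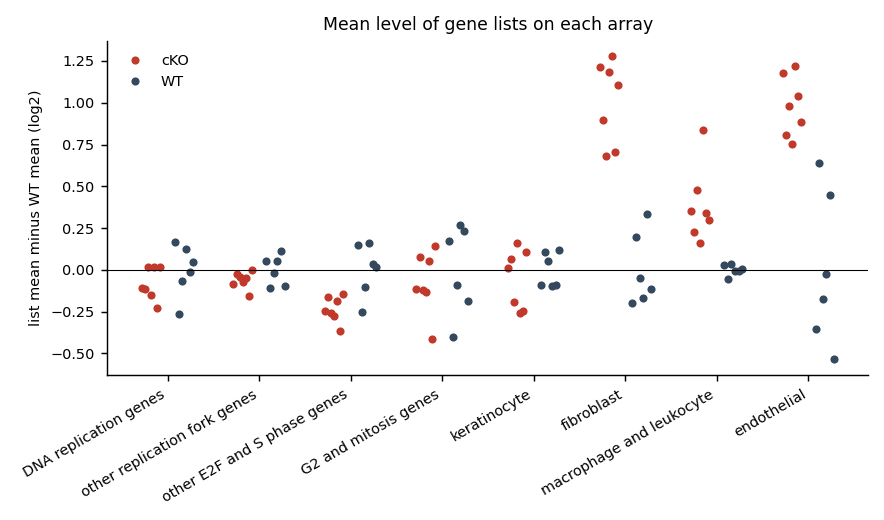
Mean log2 level of each list per array, minus its mean over the WT arrays, with the 7 cKO arrays left of the 6 WT arrays. Shown are the replication genes, the related cell cycle lists and the keratinocyte, fibroblast, macrophage and leukocyte, and endothelial marker lists. The replication gene means overlap between the groups. The fibroblast, endothelial, and macrophage and leukocyte marker means of the cKO arrays lie above those of the WT arrays. In the macrophage and leukocyte list Cd53 had the largest difference, 2.95, beside a list median of 0.25.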

How the data were processed

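RNA from 13 tumours was amplified and hybridised to Affymetrix arrays. The deposited values are log2 intensities, made by the authors with RMA per the submitters' processing notes, and no scanner files were used here. Of 45141 probe sets 104 are controls, 28898 carry 1 gene symbol in the platform annotation, 551 several and 15588 none. The probe set with the highest mean stood for each of 17097 genes. The members, lists and tests were chosen with earlier results of these data known. All genes were fitted together in R 4.3.3 with limma 3.58.1 (lmFit and eBayes, two-sided, Benjamini-Hochberg), without and with a term for neighbouring arrays, and the script was tested on simulated data. Values per array are given for members called in both fits with an absolute difference of at least 0.3. Up to 2 uncalled members of a role with the highest level are named, further members by range and count, and of each related list up to 4 genes by smallest p. The upper quartile of 23 nonspecific control probe sets served as background level. Alternatives were other normalizations, level filters, probe set means, array weights, a robust trended prior, a block for the replicate number and leaving out each array. Array depth has no equivalent here, and the number of arrays limits the precision. Array medians were 5.09 to 5.14 and no 2 arrays held identical values.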

Additional observations from a re-analysis of the deposited data

Results flagged for a closer look

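Cdt1 in WT replicate 4 stood apart from the rest of its group, at 8.94 where the other WT arrays lay between 9.11 and 9.17. It was the only such case among the 112 groups of arrays tested, and chance flags about 1 in 20 groups. Cdt1 remained called without that array.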

How the results depend on the processing

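None of the differences of the 18 members called without the pair term changed sign under the alternatives run. Among uncalled members Orc6, Gins1, Rpa1, Rpa2, Rrm1, Tyms, E2f1 and Timeless, all near 0, changed sign under quantile normalization or cyclic loess. The number of members lower in cKO, 13 without the pair term, was 8 after quantile normalization, 8 after cyclic loess, 7 with the pair term, 2 with the pair term after quantile normalization, 4 with it after cyclic loess and 8 at an adjusted p below 0.01. The number higher, 5, was 9 after quantile normalization, 3 with a level filter at the 50th percentile and 3 with the pair term after either normalization. Under pair term and quantile normalization the calls that remained were Cdc7, E2f3, Rfc3, Fen1 and Ccne2. The 8 arrays with shared replicate numbers gave 7 lower and 2 higher with the replicate block, and 11 and 2 without it. The correlations gave no sign of a pairing by number. Same-numbered arrays correlated at -0.30 to 0.05, and none of the 8 correlated best with its own number. The mirroring of neighbouring arrays is part of the same deviations, so a weaker link by number could be masked. The mean over probe sets ended the calls of Clspn, E2f3, Mcm2, Rfc3 and Slbp, whose probe sets differ. Leaving out each array gave 12 to 16 lower, 4 to 7 higher and medians of -0.13 to -0.05. Mcm4 lost its call without WT replicate 2, 7 or 9, Pcna without WT replicate 6, and Pola2 in 8 of these fits. The first probe set of Ehmt2 was called at 0.24 after quantile normalization, 0.20 after cyclic loess and 0.17 without WT replicate 9, and lay between 0.074 and 0.17 over the fits that left out 1 array. The cause of these shifts was not tested. Signal near the control level limits what can be said of Fen1, Ccne2 and Cdc6.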
